A study of Mus musculus with 12 samples.

Results

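The cholesterol synthesis and SREBP-LXR genes followed here are 32 mouse genes, chosen by symbol, of the 52636 genes in the count table, and all 32 passed the filter on low counts. They comprise 18 enzymes of cholesterol synthesis, 5 genes of the SREBP system, 5 genes of the LXR, efflux and receptor turnover arm, and 4 genes of sterol storage and intracellular transport. Their RNA was measured in whole back skin of wild-type BALB/c mice, in 4 groups with 3 samples each. The control group received vehicle in the skin, and the LL37 group received intradermal LL37, the active peptide of human cathelicidin, over 2 days, which makes a rosacea-like dermatitis. The control+RAPA and LL37+RAPA groups additionally received rapamycin (RAPA), which inhibits mTORC1 kinase signalling. Per the study's methods the mice were females and were injected at 8 weeks of age. The methods give intraperitoneal RAPA at 4 mg/kg per day for BALB/c mice in general. They do not state the route and dose for the mice of these libraries. No allele was altered in any group, and nothing in the labels says whether a sample pools several mice, so the p-values measure the spread between these samples.

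Cholesterol is built from acetyl-CoA through mevalonate and farnesyl diphosphate, then through squalene and a series of sterols. The transcription factor SREBP2, from Srebf2, turns on the enzymes of this route, while SREBP1, from Srebf1, is better known for fatty acid synthesis. Both are held in the endoplasmic reticulum as precursors by SCAP and the INSIG proteins when sterols are plentiful, and are carried to the Golgi and cleaved when sterols are scarce. The liver X receptors LXRα (Nr1h3) and LXRβ (Nr1h2) answer to oxysterols and turn on cholesterol export. In skin, cholesterol is a part of the lipid barrier made by keratinocytes and of sebum made by sebaceous glands, and mTORC1 is known to promote SREBP activity in cultured cells. SREBP and LXR activity are set largely by cleavage and by ligands, neither of which is measured here.

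Between 15734559 and 23271784 reads were counted on genes per library. All levels below are CPM, counts put on one library total with the TMM factors that make libraries comparable, and fold changes are on the log2 scale with their standard error (SE). "Passed" or "changed" means a Benjamini-Hochberg adjusted p under 0.05 over the 17993 tested genes in the edgeR quasi-likelihood test, and a DEG also has an absolute log2 fold change above 1. Keratinocyte markers were high in every library, with Krt5 between 4139 and 8328 CPM. The libraries differed in tissue make-up, and in bulk skin fewer cells of a type and less RNA per cell cannot be told apart. The summed level of 9 skeletal muscle markers was 29228 to 43154 CPM in control, 32540 to 58841 CPM in control+RAPA, 17.5 to 635 CPM in LL37 and 2513 to 5564 CPM in LL37+RAPA skin. LL37 replicate 3 stood apart within its group, with a neutrophil marker sum of 247 CPM against 1738 and 2422 CPM in the other LL37 libraries, and it was the LL37 library with the muscle sum of 635 CPM.

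To determine how far the sterol genes responded to LL37, LL37 skin was compared with control skin. Of the 32 genes, 6 were higher, 1 was lower and 25 did not pass. The genes that rose were Ebp and Mvk of the synthesis route, Srebf2 and Scap of the SREBP system, and Stard4 and Npc2 of intracellular transport, and the gene that fell was the enzyme Hsd17b7. The fitted rises were between 1.19-fold for Scap and 1.71-fold for Ebp. In the same comparison 21% of all tested genes were called higher and 21.6% lower, so the count of 6 was close to its background and the count of 1 was below it. None of the 32 was a DEG, where 8.73% of all tested genes were higher DEGs and 10.8% lower DEGs. The median log2 fold change was 0.02 over the 32 genes and -0.005 over all tested genes. The LL37 and control libraries did not overlap for 6 of the 32 genes and for 8937 of the 17993 tested genes. At this spread, the 95% interval of the fold change lay within the limits of -1 and 1 for 28 of the 32 genes and for 53.6% of all tested genes, and the other 4 were Hsd17b7, Ebp, Mylip and Stard4. The count of 7 fell to 3 without control replicate 1, to 3 without control replicate 3 and to 4 without LL37 replicate 1, and it was 3 when only these groups were fitted. Without control replicate 2 and LL37 replicate 3 together it was 7, but with Sqle and Mylip in place of Hsd17b7 and Stard4.

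**Figure D1:**
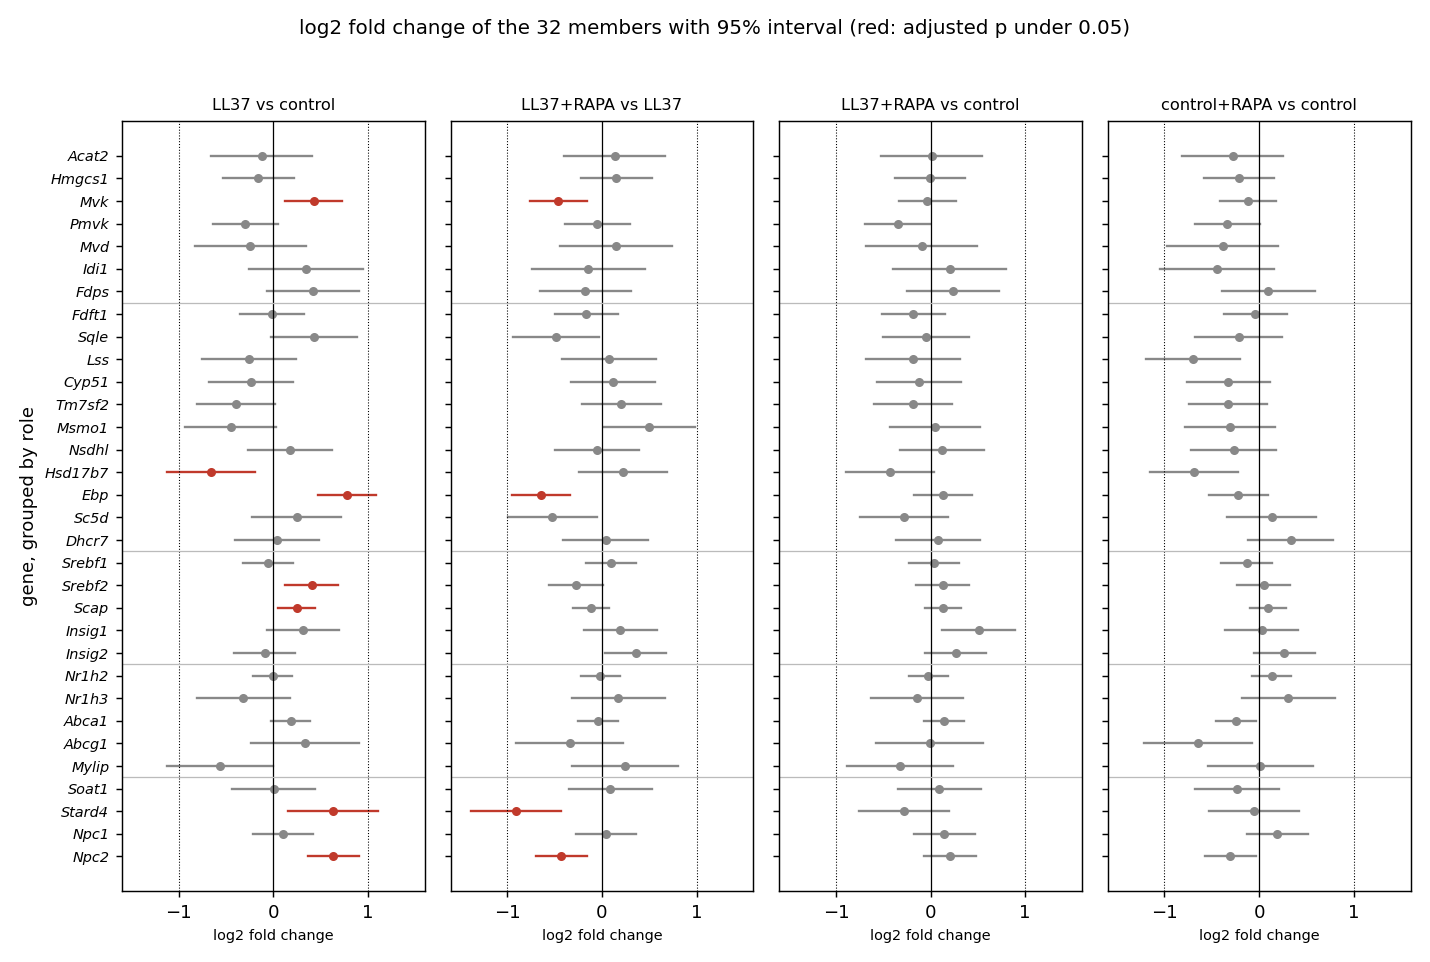
Each point is the log2 fold change of 1 gene and each line its 95% interval, with 1 panel per comparison, genes grouped by role from the synthesis enzymes at the top to storage and transport at the bottom, red where the adjusted p was under 0.05 and dotted lines at -1 and 1. Red points stand at 7 genes in LL37 vs control, at 4 in LL37+RAPA vs LL37 and at 0 in both other panels.

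The strongest change among the enzymes was that of Ebp, the sterol isomerase that moves a double bond in the sterol ring late in the route. Ebp stood at 35.0, 45.4 and 43.3 CPM in control, 78.9, 72.6 and 60.7 CPM in LL37, 44.3, 45.0 and 46.7 CPM in LL37+RAPA, and 37.2, 29.0 and 40.1 CPM in control+RAPA skin. All 3 LL37 libraries lay above the other 9. The change from control was 0.78 (SE 0.14, adjusted p = 0.0011), from 41.2 ± 5.51 to 70.7 ± 9.24 CPM (SD, n = 3), and it passed in all 19 alternative analyses, with adjusted p between 4.3e-06 and 0.0082.

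Mvk, the kinase that phosphorylates mevalonate, gave 93.3, 113 and 90.6 CPM in control and 148, 130 and 121 CPM in LL37 skin. It was 106, 91.7 and 91.7 CPM in LL37+RAPA and 106, 75.2 and 93.0 CPM in control+RAPA skin, so that the LL37 libraries again lay above all others. Its log2 fold change was 0.43 (SE 0.14, adjusted p = 0.026) and did not pass without control replicate 1, control replicate 3 or LL37 replicate 1, where the adjusted p reached 0.11. Hsd17b7, which reduces a keto group during removal of the sterol methyl groups, went the other way. Its levels were 90.1, 153 and 106 CPM in control and 88.6, 64.2 and 68.9 CPM in LL37 skin, against 101, 79.4 and 79.2 CPM in LL37+RAPA and 85.0, 56.0 and 76.8 CPM in control+RAPA skin. All LL37 values were below the lowest control, by a narrow margin for LL37 replicate 1. The log2 fold change of -0.66 (SE 0.21, adjusted p = 0.027) was not past the threshold without control replicate 2, LL37 replicate 2 or LL37 replicate 3, with adjusted p up to 0.20, nor in the fit of these groups alone.

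**Figure D2:**
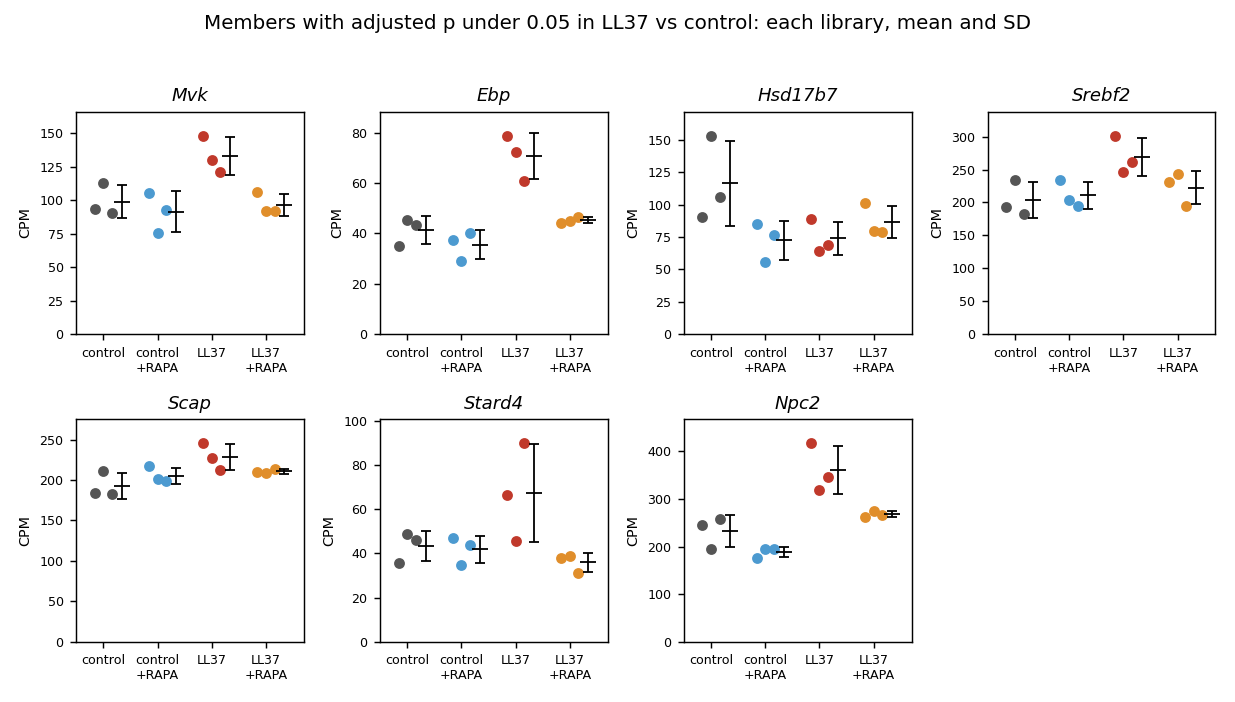
Each panel shows 1 of the 7 genes that passed in LL37 vs control, with CPM on the vertical axis from 0, 1 point per library in 4 groups of 3, and the mean with SD in black beside them. The LL37 points of Ebp, Mvk, Srebf2, Scap and Npc2 lie above every control point, those of Hsd17b7 below, and those of Stard4 overlap the control points.

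The other 15 enzymes did not pass in LL37 vs control. In the early pathway to farnesyl diphosphate, log2 fold changes were -0.12 for Acat2, -0.16 for Hmgcs1, -0.29 for Pmvk, -0.24 for Mvd, 0.35 for Idi1 and 0.42 for Fdps. Acat2 and Hmgcs1 make the first carbon units, Pmvk and Mvd act on the phosphorylated mevalonates, and Idi1 and Fdps handle the isoprene units that follow. From squalene onward they were -0.01 for Fdft1, 0.43 for Sqle, -0.26 for Lss, -0.23 for Cyp51, -0.39 for Tm7sf2, -0.45 for Msmo1, 0.17 for Nsdhl, 0.25 for Sc5d and 0.04 for Dhcr7. Fdft1 joins farnesyl units into squalene, Sqle and Lss turn squalene into lanosterol, and the remaining enzymes trim and reduce the sterol. Sqle, Tm7sf2 and Msmo1 came closest, each with an adjusted p of 0.12. Sqle passed without control replicate 2 (0.66, adjusted p = 0.028) or without LL37 replicate 2 (0.64, adjusted p = 0.028), and Fdps passed without LL37 replicate 2 (0.66, adjusted p = 0.021). Over the 18 enzymes, 8 had a positive and 10 a negative log2 fold change. The summed level of all 18 was 1656, 2735 and 1971 CPM in control and 2248, 1660 and 2034 CPM in LL37 skin, and these ranges overlap. Per kilobase of exon, mean control levels ran from 69.6 CPM per kb for Hmgcs1 to 1.37 CPM per kb for Fdps. Fdps shares exons with another gene on the same strand, so its reads cannot be fully assigned.

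Letter motifs before the start sites of the enzymes were counted as a feature that the choice of genes did not use. RefSeq promoters (GRCm38.p6) matched 26 of the 32 genes, among them 15 of the 18 enzymes with 18 start sites, and the 250 bases before each start were searched on both strands for the sterol regulatory element (TCACNCCAC), the CCAAT box (CCAAT) and the GC box (GGGCGG). The CCAAT box occurred before 14 of the 18 enzyme start sites, 77.8%, against 33.8% of all 32851 promoters. The GC box occurred before 15 of the 18, 83.3%, against 32.7%. The shares over all promoters were not limited to genes tested here, and Dhcr7 and Pmvk count with more than 1 start site. Over all 35 start sites of the 26 matched genes, enzymes included, the CCAAT box occurred before 22 and the GC box before 25, so neither is confined to the enzymes. The sterol regulatory element in these letters occurred before 1 enzyme start site, that of Hmgcs1, and before 1.05% of all promoters. These are letter matches and not measured binding sites, and no value here says which factor occupies them. The windows are shown for Hmgcs1, which has all 3 motifs, and for Mvk and Ebp, the enzymes that changed in both LL37 comparisons, with the motif letters of either strand in capitals and the start site just after the last base. Hmgcs1 is chr13:119690101-119690350 on the plus strand, Mvk is chr5:114444019-114444268 on the plus strand, and Ebp is chrX:8193513-8193762 on the minus strand. Motifs did not overlap in these windows.
Hmgcs1: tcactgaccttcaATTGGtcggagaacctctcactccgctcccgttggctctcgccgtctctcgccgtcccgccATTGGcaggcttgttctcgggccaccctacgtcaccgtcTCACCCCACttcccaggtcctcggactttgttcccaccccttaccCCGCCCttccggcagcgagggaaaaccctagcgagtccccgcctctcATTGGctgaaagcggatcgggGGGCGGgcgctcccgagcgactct
Mvk: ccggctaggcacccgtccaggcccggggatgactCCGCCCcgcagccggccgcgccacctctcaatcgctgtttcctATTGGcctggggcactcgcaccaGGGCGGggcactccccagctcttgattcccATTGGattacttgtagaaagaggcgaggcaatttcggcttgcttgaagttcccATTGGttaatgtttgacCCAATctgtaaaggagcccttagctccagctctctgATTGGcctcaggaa
Ebp: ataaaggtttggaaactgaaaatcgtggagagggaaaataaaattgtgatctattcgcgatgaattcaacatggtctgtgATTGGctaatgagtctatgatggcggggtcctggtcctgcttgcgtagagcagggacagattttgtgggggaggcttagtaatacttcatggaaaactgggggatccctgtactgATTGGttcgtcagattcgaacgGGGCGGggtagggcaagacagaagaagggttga
In these windows Hmgcs1 has 3 CCAAT boxes and 2 GC boxes, Mvk has 5 and 2, and Ebp has 2 and 1. Hmgcs1 with its sterol regulatory element did not pass in any comparison, with levels of 255 to 412 CPM in control and 243 to 313 CPM in LL37 skin.

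The enzymes varied together between libraries of a group. Control replicate 2 was the highest control library for 17 of the 18 enzymes, where it was highest for 35.3% of all tested genes, and control replicate 1 was the lowest for 16 of 18, against 34.5%. In control+RAPA skin replicate 2 was lowest for 17 of 18 enzymes, against 34.8% of all tested genes. LL37 replicate 1 was highest for 15 of 18 (27.3% of all tested genes) and LL37 replicate 2 lowest for 15 of 18 (29.5%). The median coefficient of variation between control libraries was 26.8% for the enzymes, 14.0% for the other 14 genes and 13.1% for all tested genes. In the same order it was 17.4%, 12.7% and 12.6% in control+RAPA skin and 17.9%, 16.5% and 17.5% in LL37 skin. In LL37+RAPA skin it was 9.01%, 5.15% and 11.2%. Control replicate 2 was also the highest control library for 11 of 16 genes listed for the fatty acid branch of SREBP, 5 of 8 sebocyte markers, 5 of 5 basal and 6 of 6 differentiated keratinocyte markers, and for 0 of 7 macrophage and 0 of 5 fibroblast markers. The sebocyte marker sum was 1536, 2718 and 2193 CPM in control, 1955, 1194 and 1989 CPM in LL37, 2878, 2388 and 2598 CPM in LL37+RAPA and 2500, 2415 and 2193 CPM in control+RAPA skin. In control and LL37 skin its lowest and highest libraries were those of the enzyme sum, except that LL37 replicate 3 was marginally above replicate 1. Control+RAPA replicate 2, with the lowest enzyme sum of 1459 CPM, did not have a low sebocyte sum. It did have the lowest basal keratinocyte sum of its group, with 14270.5, 11747 and 14236 CPM. That sum was 11915, 16661 and 13077 CPM in control and 21161, 20563 and 20588 CPM in LL37 skin. Its highest and lowest libraries were those of the enzyme sum in these groups, but not in LL37+RAPA skin (15277, 14513 and 15907 CPM). The part of cell make-up in this spread was not tested.

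**Figure D3:**
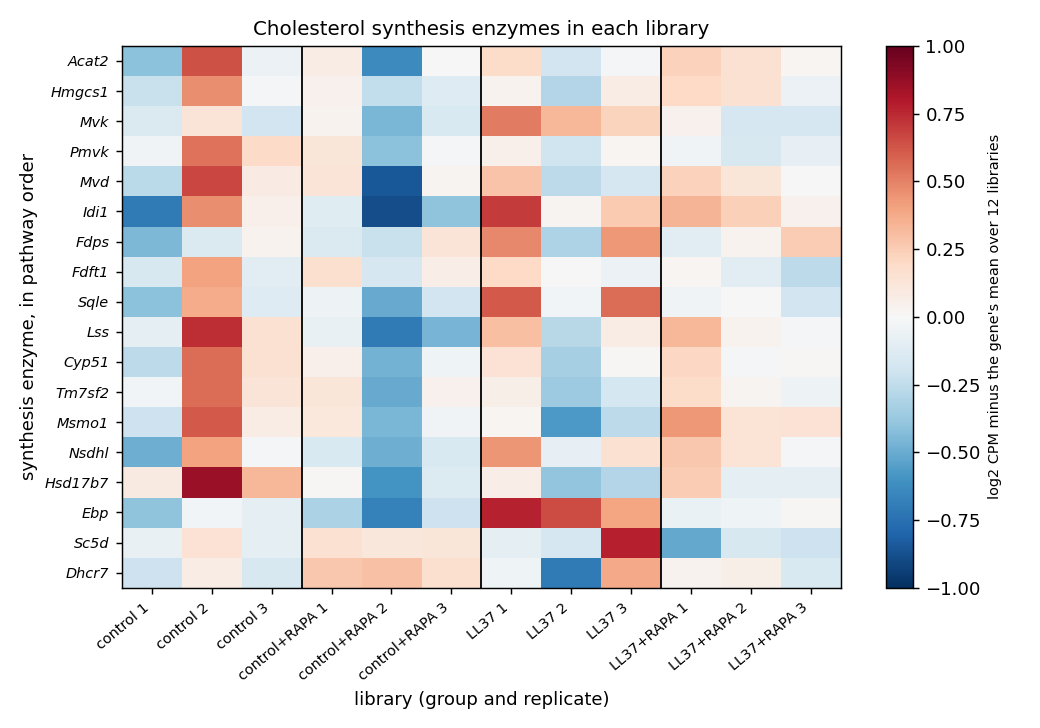
Rows are the 18 synthesis enzymes in pathway order and columns the 12 libraries by group, and colour is log2 CPM minus the gene's mean over the 12 libraries, red above and blue below. Control replicate 2 is red and control+RAPA replicate 2 blue down most of the column, while Ebp and Mvk are red in all 3 LL37 libraries.

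In the SREBP system, Srebf2 and Scap rose in LL37 skin and Srebf1, Insig1 and Insig2 did not pass. Srebf2 was at 194, 235 and 183 CPM in control, 302, 246 and 261 CPM in LL37, 230, 243 and 194 CPM in LL37+RAPA and 234, 203 and 195 CPM in control+RAPA skin. Every LL37 library was above every other library, with LL37 replicate 2 close to the highest of the rest. The log2 fold change against control was 0.40 (SE 0.13, adjusted p = 0.026), and did not pass without control replicate 1, control replicate 3 or LL37 replicate 1 (adjusted p up to 0.11), nor in the fit of these groups alone. Scap, the escort of the SREBP precursors, rose by the least of the genes that passed, from 184, 211 and 182 CPM in control to 245, 227 and 212 CPM in LL37 skin. Its log2 fold change of 0.25 (SE 0.09, adjusted p = 0.041) passed in only 3 of the 12 analyses that left out 1 library, namely those without control replicate 2, LL37 replicate 3 or control+RAPA replicate 1.

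Srebf1 held 218, 213 and 186 CPM in control, 208, 210 and 174 CPM in LL37, 221, 223 and 190 CPM in LL37+RAPA and 216, 171 and 176 CPM in control+RAPA skin. These groups overlapped, and the LL37 vs control value of -0.06 had a 95% interval from -0.32 to 0.21. Insig1, a sterol-responsive retention protein that is itself an SREBP target, gave 43.2, 58.9 and 60.7 CPM in control, 86.2, 53.7 and 62.4 CPM in LL37, 75.1, 82.4 and 74.2 CPM in LL37+RAPA and 63.0, 50.6 and 52.3 CPM in control+RAPA skin. The LL37 libraries of Insig1 overlapped the controls (0.31, SE 0.18, adjusted p = 0.17), and the LL37+RAPA libraries lay above all controls (0.51, SE 0.18, adjusted p = 0.079). Insig2 gave -0.09 in LL37 vs control and 0.36 in LL37+RAPA vs LL37 (adjusted p = 0.10), where its libraries did not overlap.

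Among the LXR, efflux and receptor turnover genes, 0 of 5 passed in any comparison. Nr1h3 was at 31.3, 23.9 and 24.0 CPM in control and 29.4, 20.8 and 13.4 CPM in LL37 skin. It was at 23.9, 23.3 and 24.5 CPM in LL37+RAPA and 28.4, 35.9 and 33.6 CPM in control+RAPA skin. LL37 replicate 3 was the lowest of all libraries, and without LL37 replicate 1 the gene passed as lower (-0.63, adjusted p = 0.030), against -0.32 and an adjusted p of 0.29 with all libraries. Abca1, the exporter that loads cholesterol onto apolipoproteins, held 176, 157 and 165 CPM in control, 203, 199 and 163 CPM in LL37, 181, 188 and 181 CPM in LL37+RAPA and 137, 148 and 135 CPM in control+RAPA skin. The control+RAPA libraries of Abca1 were below all others, with a log2 fold change against control of -0.25 (SE 0.10, adjusted p = 0.52). LL37 vs control gave 0.18 (SE 0.10, adjusted p = 0.15) for Abca1, which passed without LL37 replicate 3.

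Abcg1, the exporter to high-density lipoprotein, gave 38.9, 25.3 and 38.5 CPM in control, 40.1, 27.8 and 61.4 CPM in LL37, 28.6, 38.3 and 35.3 CPM in LL37+RAPA and 18.4, 22.2 and 25.2 CPM in control+RAPA skin. The control+RAPA libraries of Abcg1 lay below the controls without passing (-0.64, SE 0.26, adjusted p = 0.54), by only 25.2 against 25.3 CPM at the nearest. Control+RAPA and control libraries did not overlap for 5 of the 32 genes, Abca1 and Abcg1 among them, and for 2819 of the 17993 tested genes. Mylip, the LXR-induced ligase that degrades lipoprotein receptors, gave -0.57 on the log2 scale in LL37 vs control (adjusted p = 0.098) and passed without LL37 replicate 3 (-0.90, adjusted p = 0.0048). Nr1h2 was near 0 in LL37 vs control, with -0.01 and an interval from -0.21 to 0.20.

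**Figure D4:**
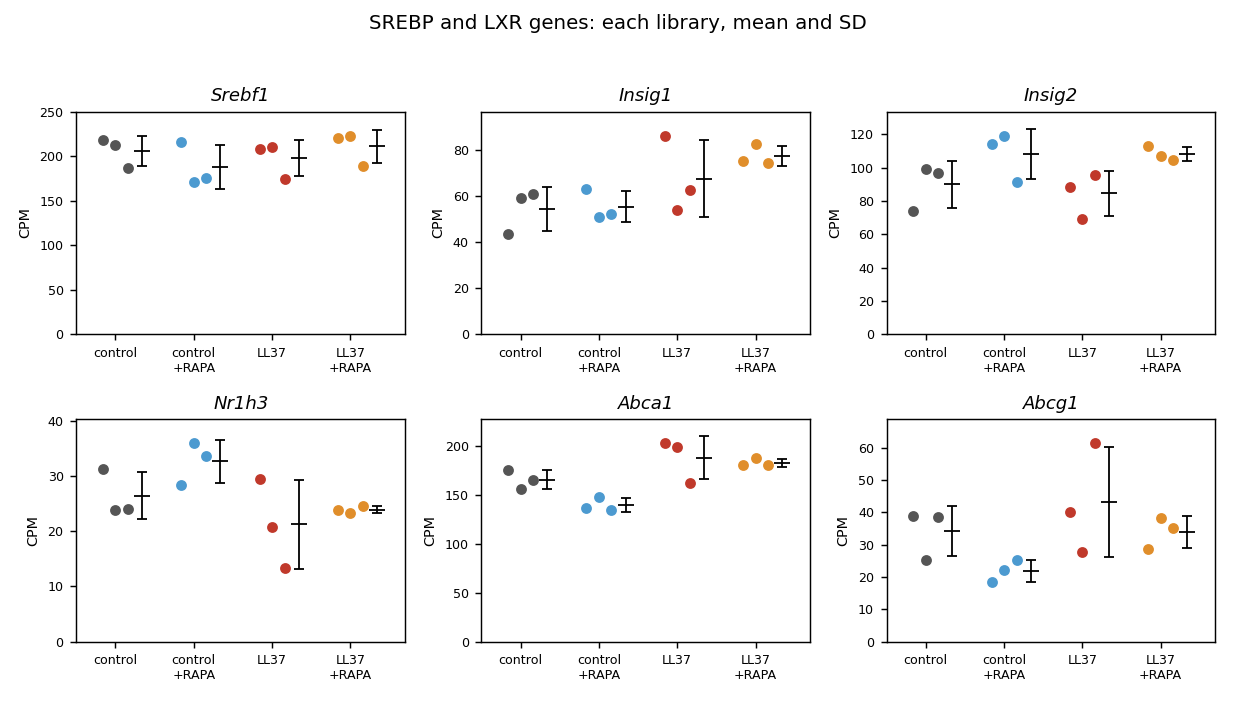
Each panel is 1 gene with CPM on the vertical axis from 0, 1 point per library in 4 groups of 3, and the mean with SD in black. Srebf1 overlaps across all groups, the LL37+RAPA points of Insig1 lie above the control points, and the control+RAPA points of Abca1 and Abcg1 lie below the control points, by a narrow margin for Abcg1.

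Intracellular transport held the other genes that rose. Npc2, the soluble lysosomal protein that hands cholesterol to the membrane protein of Npc1, was at 245, 194 and 259 CPM in control, 417, 319 and 346 CPM in LL37, 262, 275 and 267 CPM in LL37+RAPA and 177, 194 and 194 CPM in control+RAPA skin. The LL37 libraries were the highest and did not overlap any other group. The log2 fold change of 0.63 (SE 0.12, adjusted p = 0.0018) passed in all 19 alternative analyses. In LL37 vs control, 6 of 7 macrophage markers also rose, and none was at 0. Their summed level was 574 to 945 CPM in control, 1367 to 1873 CPM in LL37 and 556 to 712 CPM in control+RAPA skin. In LL37+RAPA skin, where Npc2 was below its LL37 level, the sum was 1467 to 2550 CPM and had not fallen. The part of macrophages in the rise of Npc2 was not tested.

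Stard4, a carrier that moves sterol between membranes, gave 35.7, 48.6 and 45.9 CPM in control, 66.4, 45.3 and 89.7 CPM in LL37, 37.8, 38.8 and 31.0 CPM in LL37+RAPA and 46.7, 34.9 and 43.6 CPM in control+RAPA skin. LL37 replicate 2 was within the control range and LL37 replicate 3 was the highest library. Its log2 fold change of 0.63 (SE 0.22, adjusted p = 0.035) did not pass without any 1 of the control libraries, without LL37 replicate 1, LL37 replicate 3 or control+RAPA replicate 3, or without control replicate 2 and LL37 replicate 3 together (adjusted p up to 0.14). Soat1, which esterifies cholesterol for storage, and Npc1 had values of 0.01 and 0.10 and did not pass.

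To determine whether RAPA changed these genes in LL37 skin, LL37+RAPA was compared with LL37. Of the 32 genes, 4 were lower and 0 higher, and they were 4 of the 6 that LL37 raised. In this comparison 12.4% of all tested genes were called higher and 11.8% lower, 5.8% and 4.33% as DEGs, so the count of 4 was close to the background for lower genes. None of the 32 was a DEG. The comparison shares the LL37 libraries with LL37 vs control, so that opposite signs in the pair are not separate observations. Stard4 fell by 0.91 on the log2 scale (SE 0.22, adjusted p = 0.013), Ebp by 0.64 (SE 0.14, adjusted p = 0.0087), Mvk by 0.46 (SE 0.14, adjusted p = 0.031) and Npc2 by 0.43 (SE 0.12, adjusted p = 0.028). For each of these 4, all LL37+RAPA libraries were below all LL37 libraries. In this comparison the libraries did not overlap for 7 of the 32 genes and for 6886 of the 17993 tested genes. Without LL37 replicate 2 the change of Stard4 reached -1.13, which made it a DEG. The count of 4 was 2 without LL37 replicate 1, LL37+RAPA replicate 1 or LL37+RAPA replicate 2, 1 without LL37+RAPA replicate 3, and 2 when only these groups were fitted, whereas Ebp passed in all 19 alternative analyses. The fall of Stard4 did not pass without LL37+RAPA replicate 3, that of Npc2 without LL37 replicate 1 or any 1 of the LL37+RAPA libraries, and that of Mvk without these 4, LL37 replicate 2 or control+RAPA replicate 3 (adjusted p up to 0.13). Srebf2 (-0.28, adjusted p = 0.14), Scap (-0.12, adjusted p = 0.36) and Hsd17b7 (0.23, adjusted p = 0.46) did not pass.

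Between LL37 and LL37+RAPA skin, 2 of 7 macrophage markers were lower and 0 higher, with a median log2 fold change of -0.22. Their sum did not fall, but it includes Lyz2, whose mean went from 742 CPM in LL37 to 1240 CPM in LL37+RAPA skin. The means of Adgre1, Cd68, Mrc1, Csf1r, Cd163 and Itgam were all lower in LL37+RAPA skin. Of the neutrophil markers, 3 of 5 tested were lower, with sums of 81.6 to 344 CPM in LL37+RAPA skin. Adipocyte and muscle markers were higher in LL37+RAPA than in LL37 skin, 6 of 6 and 9 of 9. What these shifts contribute to the fall of the 4 genes was not tested.

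When LL37+RAPA skin was set against control skin, 0 of the 32 genes passed. The background was 5.03% of tested genes higher and 9.01% lower, with 2.15% and 4.35% as DEGs, and 2 of the 32 had an unadjusted p under 0.05, against 27.4% of all tested genes. All 32 intervals lay within -1 and 1, against 65.2% of all tested genes, and values ran from -0.43 for Hsd17b7 to 0.51 for Insig1. Ebp stood at 0.14, Mvk at -0.04, Npc2 at 0.20 and Stard4 at -0.28. The libraries of these groups did not overlap for 6 of the 32 genes and for 6556 of the 17993 tested genes. In DESeq2, Insig1 passed as the only 1 of the 32.

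RAPA in control skin gave 0 calls among the 32 genes, and the background was 0% higher and 0% lower of all tested genes with edgeR. At an unadjusted p under 0.05 there were 5 of the 32 and 1556 of all tested genes, or 8.65%, and DESeq2 called 0 of the 32 and 102 of all tested genes. The 5 were Lss (-0.70), Hsd17b7 (-0.68), Abcg1 (-0.64), Npc2 (-0.30) and Abca1 (-0.25), each lower with RAPA. Of the 18 enzymes, 15 had a negative log2 fold change, with a median of -0.27, where all tested genes had a median of -0.006. Control replicate 2 held the highest enzyme sum of the controls and control+RAPA replicate 2 the lowest of its group.

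Whether the effect of RAPA depended on LL37 was tested as an interaction, the effect of RAPA in LL37 skin minus that in control skin. Of the 32 genes 0 passed in either direction, where 2.15% of tested genes were higher and 1.13% lower. At an unadjusted p under 0.05 there were 4 of the 32, against 22.5% of all tested genes. The 4 were Hsd17b7 (0.91, SE 0.30), Msmo1 (0.81, SE 0.31) and Lss (0.77, SE 0.32) with positive values and Stard4 (-0.85, SE 0.31) with a negative one. Their adjusted p lay between 0.11 and 0.18. Hsd17b7 passed in DESeq2. The intervals are wide, and 20 of 32 lay within -1 and 1, against 50.8% of all tested genes.

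The genes around the pathway were counted in the same way, from lists of neighbouring functions, and their counts stand beside the shares over all tested genes given above: 21% higher and 21.6% lower in LL37 vs control, and 12.4% and 11.8% in LL37+RAPA vs LL37. Of the oxysterol enzymes, 2 of 4 tested were higher and 1 was lower in LL37 skin, all 3 as DEGs. Ch25h makes 25-hydroxycholesterol, a ligand of LXR and a brake on SREBP processing. It had 3, 10 and 4 counts in control, 131, 90 and 69 in LL37, 17, 30 and 11 in LL37+RAPA and 3, 3 and 6 in control+RAPA skin. Its log2 fold change was 4.13 (SE 0.50, adjusted p = 8.4e-05) in LL37 vs control and -2.63 (SE 0.43, adjusted p = 0.0026) in LL37+RAPA vs LL37, from low control counts. Cyp7b1, which hydroxylates oxysterols further, rose from 1.13, 0.615 and 1.58 CPM in control to 16.5, 18.4 and 9.23 CPM in LL37 skin (3.72, SE 0.40, adjusted p = 4.1e-05). In LL37+RAPA skin it stayed at 6.97, 14.7 and 7.57 CPM, which was above control (3.14, SE 0.40, adjusted p = 0.00035) and overlapped LL37 (-0.59, adjusted p = 0.23). Cyp27a1, the mitochondrial sterol hydroxylase, was the gene that fell, by 1.31 on the log2 scale (SE 0.40, adjusted p = 0.021), and no gene of the list was called lower without control replicate 1 or 3 or LL37 replicate 1 or 2, nor when only these groups were fitted.

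The 16 genes listed for the fatty acid branch of SREBP include some that do not make fatty acids themselves, such as Gpam. Of these 16, 0 rose and 5 fell in LL37 skin, against 21% and 21.6% of all tested genes. In LL37+RAPA vs LL37, 6 rose and 1 fell, against 12.4% and 11.8%. The 6 rises were 1 without LL37+RAPA replicate 1, 2 without LL37 replicate 2, 3 without LL37+RAPA replicate 2 or 3, and 1 when only these groups were fitted, and the 5 falls were 8 without LL37 replicate 1. The 1 fall in LL37+RAPA vs LL37 was 0 without LL37 replicate 3 or LL37+RAPA replicate 1 or 3. Acacb, the acetyl-CoA carboxylase of mitochondria, went from 457, 517 and 471 CPM in control to 288, 144 and 191 CPM in LL37 and 419, 350 and 325 CPM in LL37+RAPA skin. Gpam, which starts glycerolipid synthesis, went from 106, 103 and 98.1 CPM to 50.5, 27.9 and 42.2 CPM and then 67.6, 58.9 and 51.7 CPM. Log2 fold changes in LL37 vs control were -1.21 (adjusted p = 0.00074) and -1.35 (adjusted p = 0.00023). Of the analyses without 1 library, the rise of Gpam in LL37+RAPA vs LL37 passed only in that without LL37 replicate 1 (adjusted p up to 0.17). The rise of Acacb was lost without LL37+RAPA replicate 1 (adjusted p = 0.066). Fasn, the fatty acid synthase, did not pass in LL37 vs control (-0.42, adjusted p = 0.11) and rose in LL37+RAPA vs LL37 (0.61, adjusted p = 0.043), a call that was lost without control replicate 3, LL37 replicate 2 or 3, LL37+RAPA replicate 1 or 2, or control+RAPA replicate 3 (adjusted p up to 0.15). Scd1, which desaturates fatty acids, passed in neither (-0.47 and 0.48, adjusted p = 0.17 and 0.19). Adipocyte markers moved the same way as Acacb and Gpam, 6 of 6 lower in LL37 and 6 of 6 higher in LL37+RAPA vs LL37, with a summed level of 1110 to 2114 CPM in control, 352 to 760 CPM in LL37 and 2252 to 2453 CPM in LL37+RAPA skin. Of the sebocyte markers, 2 of 8 were lower in LL37 skin and 3 of 8 higher in LL37+RAPA vs LL37. The part of either cell type was not tested.

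The SREBP processing and degradation machinery gave 3 higher and 4 lower of 10 genes in LL37 skin, and 1 higher and 1 lower in LL37+RAPA vs LL37. The 4 lower genes were 1 without control replicate 1, LL37 replicate 1 or LL37 replicate 2, when only these groups were fitted and with library size only, and 2 without control replicate 2, LL37+RAPA replicate 1 or LL37+RAPA replicate 3, or with no filter beyond 1 count in total. Rnf145, a sterol-responsive ubiquitin ligase, was the rise with the smallest p (0.49, SE 0.09, adjusted p = 0.0013) and fell in LL37+RAPA vs LL37 (-0.38, adjusted p = 0.013), where it did not pass without LL37 replicate 1 or LL37+RAPA replicate 3 (adjusted p up to 0.058). Mbtps1, the protease that makes the first cut in SREBP precursors, stood at 126, 124 and 120 CPM in control, 104, 108 and 110 CPM in LL37 and 138, 150 and 142 CPM in LL37+RAPA skin. The LL37 libraries of Mbtps1 were the lowest and the LL37+RAPA libraries were above both other groups (0.42, SE 0.07, adjusted p = 0.0035 against LL37).

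Among 11 genes of non-vesicular and lysosomal sterol handling, 2 were higher and 3 lower in LL37 skin, and 1 higher and 2 lower in LL37+RAPA vs LL37. The 3 lower genes were 1 without control replicate 1 or LL37 replicate 2, the 2 higher were 1 without control replicate 2 or 3, and in LL37+RAPA vs LL37 the 2 lower were 0 without LL37+RAPA replicate 1 and 1 without LL37+RAPA replicate 3, and the 1 higher was 2 without LL37 replicate 3. Scarb1, the receptor for high-density lipoprotein, was at 77.4, 60.7 and 63.2 CPM in control, 44.6, 43.3 and 54.4 CPM in LL37 and 83.0, 97.4 and 92.1 CPM in LL37+RAPA skin, a rise of 0.94 over LL37 (SE 0.14, adjusted p = 0.0018). Nceh1, a cholesteryl ester hydrolase, was lower in LL37+RAPA than in LL37 skin (-0.58, adjusted p = 0.022), but did not pass without LL37+RAPA replicate 1 or 3 (adjusted p up to 0.091). Of 7 other LXR targets, 1 was higher and 1 lower in LL37 skin, and 1 was higher in LL37+RAPA vs LL37. The higher gene in LL37 skin was lost in 9 of the 12 analyses without 1 library. The one that fell and then rose was Lpl, the lipase of lipoprotein triglyceride, with 515, 358 and 340 CPM in control, 111, 115 and 205 CPM in LL37 and 454, 460 and 459 CPM in LL37+RAPA skin (-1.49 with an adjusted p of 0.00057, and 1.67 with an adjusted p of 0.0017). Adipocytes are a main source of Lpl, and their markers moved as given above.

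**Figure D5:**
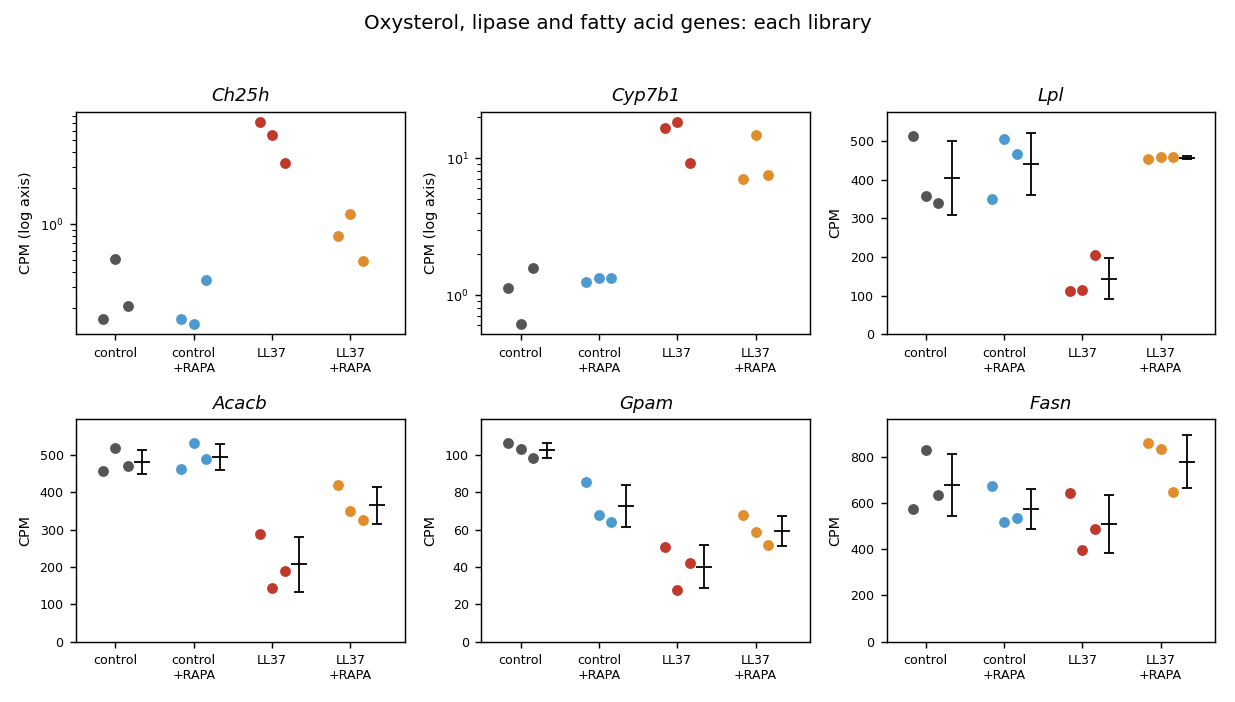
Each panel is 1 gene outside the 32, with 1 point per library in 4 groups of 3 and CPM on the vertical axis, logarithmic for Ch25h and Cyp7b1 and from 0 with mean and SD for the others. Ch25h rises in LL37 and is low again in LL37+RAPA skin, Cyp7b1 is high in both, and Lpl, Acacb and Gpam are lowest in LL37 skin.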

How the data were processed

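RNA of whole back skin was sequenced in 12 libraries. The authors deposited raw counts per gene for each library, without normalization or pooling. Their methods name HTSeq 0.6.0 on paired-end reads, whereas the submitters' processing notes list HISAT2 2.0.5, featureCounts 1.5.0-p3, StringTie 1.3.3b and DESeq2 1.16.1 with the build mm10, and which counter made the deposited counts is not given in the sources used here. The strand setting is not stated, so reads of 11 members that share exons with another gene, Srebf1, Scap, Fdft1 and Hmgcs1 among them, cannot be fully assigned. For Fdps, Tm7sf2, Nr1h3 and Srebf1 such a gene lies on the same strand, where a strand setting would not separate the reads.

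Identifiers were named by GENCODE M 21 on GRCm38 (52403 of 52636). Groups came from the labels. Counts were fitted in R 4.3.3 with edgeR 4.0.16, all 12 libraries together, using TMM, filterByExpr by group and the quasi-likelihood F-test, with Benjamini-Hochberg adjustment over 17993 genes. A floor of 3 counts corresponds to 0.123 to 0.184 CPM, which covers counting error only. Intervals are 95% from the fitted SE. No exact test per gene was run, since 3 against 3 could not reach the threshold. Steps were tested on simulated data.

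All members are reported, with levels in every library for any DEG and for Srebf1, Srebf2, Insig1, Nr1h3, Abca1 and Abcg1. Levels of the members that passed were added after their values were seen. Of the other lists, the 3 genes that passed with the smallest p, per direction and LL37 comparison, are named, plus Fasn, Scd1 and Ch25h, and Cyp27a1 was added after its values were seen. Lists are described by counts, with no set test. Members and lists were chosen with earlier results of these data known. Alternatives were DESeq2 1.42.0, other scalings and filters, a replicate block, a fit of the compared groups and each library left out. Leaving out control replicate 2 and LL37 replicate 3 together was chosen after seeing the data.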

Additional observations from a re-analysis of the deposited data

Results flagged for a closer look

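Lpl was the only 1 of the 32 genes and the named genes of other lists whose response to RAPA differed between LL37 and control skin in the test of the difference itself. The effect of RAPA in LL37 skin minus that in control skin was 1.55 on the log2 scale (SE 0.34, adjusted p = 0.036 in the edgeR interaction test, n = 3 per group). This result was not followed across the alternative analyses, so its dependence on single libraries is not known. In control+RAPA skin the level was 351, 507 and 466 CPM against 515, 358 and 340 CPM in control skin. Of the 6 adipocyte markers, Adipoq (2.48), Plin1 (2.86) and Pparg (1.33) also passed the interaction test, and the other 3 did not. Their part in the result was not tested.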

How the results depend on the processing

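When only the compared groups were fitted, 3 genes passed in LL37 vs control, 2 in LL37+RAPA vs LL37, 1 in LL37+RAPA vs control, and 6 of the other pathway lists in LL37+RAPA vs LL37. In LL37+RAPA vs control, library size only gave 2 (Scap and Insig1), while it moved the median of all genes by 0.13, and DESeq2 gave 1. DESeq2 gave 1 in the interaction (Hsd17b7). Leaving out 1 library at a time gave 3 to 8 genes in LL37 vs control, 1 to 6 in LL37+RAPA vs LL37, 0 to 1 in LL37+RAPA vs control, 0 to 1 DEGs in LL37+RAPA vs LL37, and 6 to 17 genes of the other lists in LL37+RAPA vs LL37. Without control replicate 2 and LL37 replicate 3 together, the other lists had 20. The sterol genes that passed with all libraries, in LL37 vs control or in LL37+RAPA vs LL37, kept their direction in every setting. Named genes of the other lists were not all followed gene by gene, and Cyp27a1 was followed only through the count of its list. The cause of these shifts was not tested, except that leaving out libraries or groups leaves fewer samples.

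Replicate numbers are shared between groups in the labels, but same-numbered libraries did not deviate together: 4 of 18 correlations of their deviations exceeded 0.1 (median 0.0051), as did 5 of 36 of differently numbered libraries. With a replicate block 6 genes passed in LL37 vs control (4 higher and 2 lower, without Scap and Stard4 and with Mylip), 4 in LL37+RAPA vs LL37 and 0 in the other comparisons. With 3 libraries per group and a median SE of 0.20 for the 32 genes, changes of the size seen for most enzymes were not detectable.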
